A study of Homo sapiens with 3 samples.

Results

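The peaks described here lie on opposite strands within 500 bases of each other in an eCLIP of mouse PXR. They are 259 peaks, chosen by position and strand among called peaks: the centre of each lies within 500 bases of the centre of a peak on the other strand. They form 136 pairs of a plus-strand and a minus-strand peak and make up 1.24% of the 20898 peaks tested on chromosomes 1 to 22 and X. The whole list holds 21031 peaks, and 9 peaks in the span of NR1I2, the human gene of the receptor (chr3:119782101-119818487), were left out. The method, eCLIP, sequences RNA fragments that UV light has bound to a chosen protein and that an antibody pulls down with it. HA-tagged mouse Pxr was transfected into LS174T cells, a line from a human colon adenocarcinoma, 24 h before crosslinking, and the labels give 2 immunoprecipitate libraries and 1 input library. All of them carried the transfected receptor, and no cells without it were analysed here. The data are 1 list of immunoprecipitate peaks, called apart on each strand, with coordinates in hg38. Values of single libraries were not used here, so no value has a spread between replicates. The caller's threshold decided which peaks could be chosen, so their fold and reads are given as a description, with no test.

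PXR belongs to the nuclear receptors; drugs and bile acids activate it, and it binds DNA together with RXR. The strand of a peak tells from which strand of the genome the RNA was made. RNA from both strands at 1 place is known from genes that run towards each other and overlap at their ends (tail to tail), from genes that start close together and run apart (head to head), and from antisense transcription inside or near a gene. Many promoters of human genes are known to start RNA in both directions, often in sequence rich in CG dinucleotides. The cell line was checked by marker genes. A peak was found in 15 of 16 colon epithelial markers and in 3 of 16 markers of other cell types (SYT1 and GRIN2A of neurons and COL1A2 of fibroblasts). Among all coding genes on these chromosomes, 8326 of 19974 had a peak. The lists are short, and GRIN2B, which is not among the listed markers, held 8 peaks.

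The sequences below separate the starts of the head-to-head genes whose spans do not overlap and which hold a pair of peaks. They are shown because the plus-strand peak of a pair lies to the right of such a stretch. The minus-strand peak lies to its left, reaches into it or covers it. Each is the whole stretch between the gene spans, from RefSeq (GRCh38.p14), on the plus strand. Capitals mark CCGGAA or its reverse complement TTCCGG, the core bound by transcription factors of the ETS family.
CES2 and CIAO2B, chr16:66934403-66934470: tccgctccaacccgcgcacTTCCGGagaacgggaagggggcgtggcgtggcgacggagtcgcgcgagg
NDOR1 and TMEM203, chr9:137205649-137205699: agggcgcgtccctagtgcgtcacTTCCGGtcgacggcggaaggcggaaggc
VMA12 and POLDIP2, chr17:28357528-28357646: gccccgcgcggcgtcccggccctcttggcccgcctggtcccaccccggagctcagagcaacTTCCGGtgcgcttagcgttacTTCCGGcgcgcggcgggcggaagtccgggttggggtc
NOC4L and DDX51, chr12:132144320-132144456: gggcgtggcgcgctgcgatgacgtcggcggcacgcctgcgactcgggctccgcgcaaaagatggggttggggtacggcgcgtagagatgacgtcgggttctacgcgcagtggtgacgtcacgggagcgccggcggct
DUS4L and COG5, chr7:107563921-107563970: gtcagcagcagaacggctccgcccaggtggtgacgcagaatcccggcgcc
SMYD2 and LOC124904509, chr1:214281037-214281158: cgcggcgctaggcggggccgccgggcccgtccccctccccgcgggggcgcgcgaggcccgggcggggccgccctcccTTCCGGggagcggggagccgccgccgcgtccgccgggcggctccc
The stretches are 50 to 137 bases long and hold 10.0 to 19.7 CG per 100 bases. The 250 bases before the start of 27305 genes in RefSeq's promoter table had a median of 4.40, with quartiles of 1.2 and 9.2. At CES2 and CIAO2B, NDOR1 and TMEM203, VMA12 and POLDIP2, and NOC4L and DDX51, both peaks lay outside the stretch, 25 to 108 bases from its edge. At DUS4L and COG5 the minus-strand peak covered the whole stretch, and at SMYD2 it covered 30 bases of it.

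Among the 136 pairs, the plus-strand peak lay to the right of its minus-strand partner in 94 (69.1%, Wilson interval 60.9 to 76.3%) and to the left in 42. Distances are given as the plus-strand centre minus the minus-strand centre, so a positive one means that the plus-strand peak has the higher coordinate. Their median was 125.25 bases, and the median without regard to sign was 209.5 bases. The plus-strand peak lay to the right in 60 of 80 pairs within 250 bases (Wilson interval 64.5 to 83.2%) and in 34 of 56 pairs from 250 to 500 bases (47.6 to 72.4%), and these intervals overlap. The intervals of 94 pairs overlapped by at least 1 base, with a median overlap of 148 bases. When only peaks with at least 10 reads were kept, 82 pairs stayed and the plus-strand peak lay to the right in 53.7%.

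Beyond the limit of 500 bases the pairs did not thin out evenly. Between 500 and 1000 bases there were 179 pairs with the plus-strand peak to the right and 56 with it to the left, and between 1000 and 1500 bases there were 94 and 75. Just inside the limit, from 450 to 500 bases, 19 pairs had a median of 13 reads in the shallower partner. Just outside, from 500 to 550 bases, 17 pairs had a median of 15 reads. The limit therefore cuts through a continuous range, and the histogram of distances shows it.

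**Figure D1:**
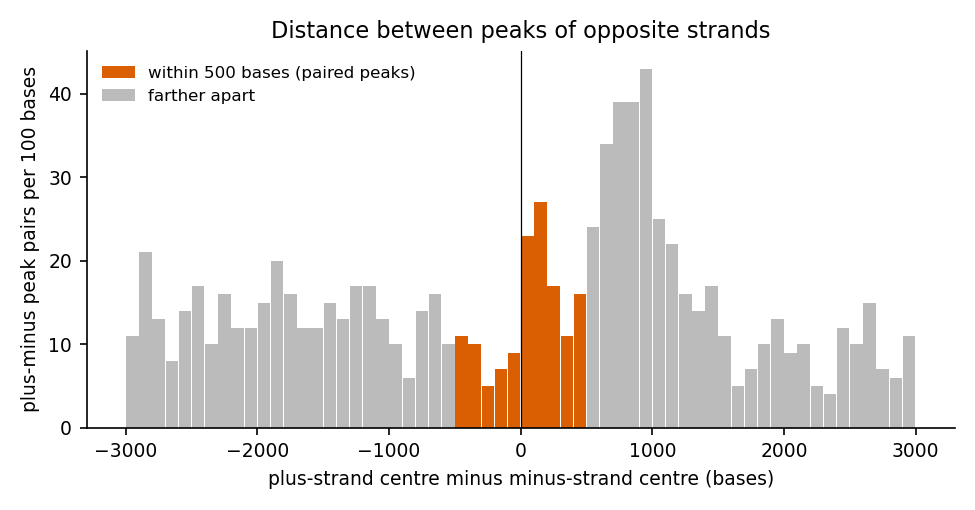
Number of plus-minus peak pairs (vertical axis, per 100 bases) by the plus-strand centre minus the minus-strand centre in bases, out to 3000 bases on either side. Orange bars are the 136 pairs within 500 bases, of which 94 lie right of 0, and grey bars are pairs farther apart, with 179 from 500 to 1000 bases on the right against 56 on the left.

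The Poisson intervals of the partners lay apart in 54 of 136 pairs and overlapped in 82. Reads at a summit were recovered from the deposited fold and −log10 p, as the processing text describes, and intervals of reads are exact Poisson intervals at 95% that cover counting error only. The shallower partner held a median of 45.5% of the reads of the deeper one (interval of the median from order statistics 40.9 to 54.5%). It held under 10 reads in 54 pairs (39.7%) and at least 20 reads in 25 pairs. The plus-strand peak was deeper in 65 pairs, the minus-strand peak in 63, and both were equal in 8. Overlap of the intervals does not show that partners had equal depth. In the plot of reads of the partners, points lie on both sides of the line of equal reads.

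**Figure D2:**
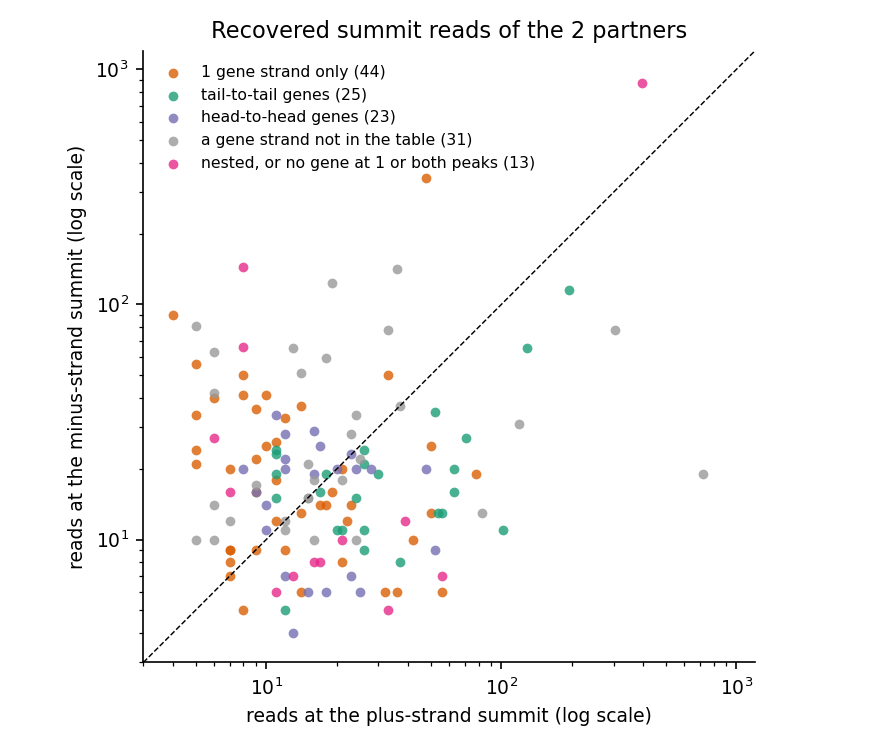
Recovered reads at the plus-strand summit (horizontal, log scale) and at the minus-strand summit (vertical, log scale) of each of the 136 pairs, coloured by the arrangement of genes; the dashed line marks equal reads. The pair with 396 and 877 reads stands at the upper right, and 54 pairs have a partner with under 10 reads.

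The pair with the most reads in its shallower partner lay in no gene of the table. On chromosome 2 it had 396 reads (358 to 437) at 32916250 to 32916704 on the plus strand and 877 reads (820 to 937) at 32916086 to 32916583 on the minus strand, with folds of 34.1 and 40.2. Folds here are those of the deposited list, summit reads over a local background. The intervals of this pair overlapped by 334 bases, and its summits lay 69 bases apart. The source of its reads was not tested. The next in rank was RPL36 with LONP1, a tail-to-tail pair.

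Genes of both strands were at hand for about as many pairs as genes of 1 strand. In 49 pairs (36.0%, Wilson interval 28.4 to 44.4%) each peak had its centre in a gene of its own strand, 25 tail to tail, 23 head to head and 1 nested (LOC112268433 within PER2, a gene of the circadian clock). In 44 pairs (32.4%, 25.1 to 40.6%) one peak lay on the strand of a gene and its partner was antisense to that gene. In 7 pairs only 1 peak lay in a gene, in 5 pairs neither did, and in the other 31 pairs a gene strand needed for the call was not given. Gene strand came from RefSeq's promoter table, which gives it for 27195 of 59098 genes on these chromosomes (46.0%). It does so for 79.2% of the coding genes and for no gene on chromosome 8. Without the 31 pairs, genes of both strands were found in 49 of 105 (46.7%).

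**Figure D3:**
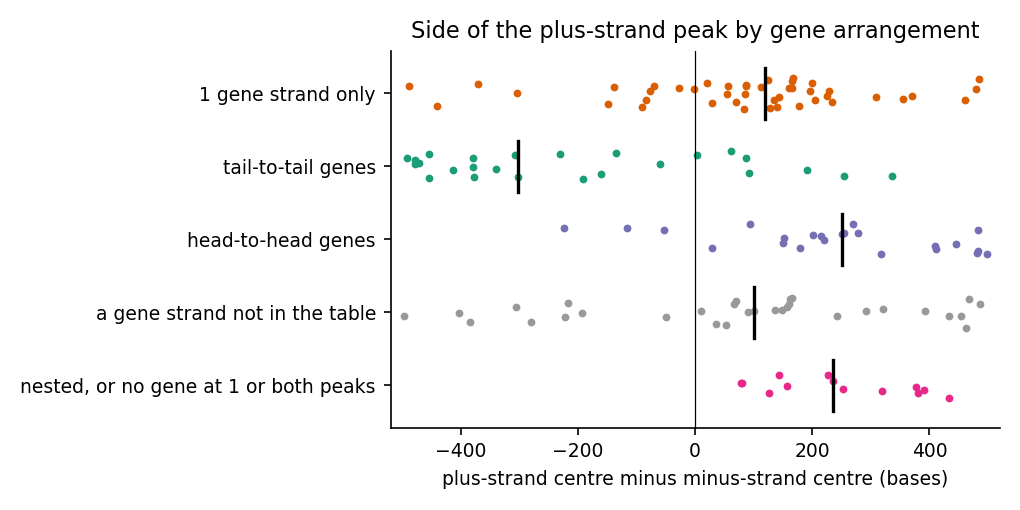
Plus-strand centre minus minus-strand centre in bases (horizontal) for each pair, in rows by gene arrangement, with black bars at the medians. Tail-to-tail pairs have a median of -303 bases, head-to-head pairs 251.5 bases and pairs at genes of 1 strand 118.5 bases.

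Tail-to-tail pairs lay in genes that run towards each other, mostly near their ends. The 25 pairs belonged to 20 gene pairs, and the gene spans overlapped in 21 of the 25. The plus-strand peak lay to the left in 18 of 25, with a median distance of -303 bases. Where the spans do not overlap, the call itself fixes that side. Where they overlap, either side is possible, so nothing is read from this count. Of their 45 distinct peaks, 35 had a summit within 1000 bases of the downstream end of their own gene, at a median of 225 bases from it. The median of the shallower partner was 13 reads (11 to 19), against 11 (8 to 16) in head-to-head pairs and 9 (7 to 11) in pairs at genes of 1 strand, and these intervals overlap or touch.

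At RPL36, for a protein of the large ribosomal subunit, and LONP1, the mitochondrial Lon protease, the plus-strand peak held 194 reads (168 to 223) and the minus-strand peak 115 (94.9 to 138). The peaks lie on chromosome 19 from 5691330 to 5691890 and from 5691772 to 5692129, and the gene spans overlap by 42 bases. Their summits lay 326 bases from the end of RPL36 and 69 bases from the end of LONP1. The histone H2A genes H2AC20 and H2AC21, on chromosome 1, are 57 bases apart and had 128 reads (107 to 152) and 65 reads (50.2 to 82.8). Their folds were 28.0 and 10.2. Histone H2A genes are near-identical to each other, so the copy a read came from is uncertain.

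SPTAN1, for the cytoskeletal protein alpha spectrin, had 52 reads and DYNC2I2, for a chain of the dynein of cilia, had 35 reads where their spans overlap by 10 bases on chromosome 9. NOP56, a core protein of small nucleolar ribonucleoproteins, had 71 reads (55.5 to 89.6), and IDH3B, a subunit of the isocitrate dehydrogenase of the citric acid cycle, had 27 (17.8 to 39.3). These last intervals do not overlap. At TPI1, the glycolytic triose phosphate isomerase, and SPSB2 the reads were 102 and 11, the most uneven of the tail-to-tail pairs. CARM1, an arginine methyltransferase and coactivator of nuclear receptors, carried 1 peak of 1433 bases and 63 reads that was paired with 2 peaks of YIPF2, with 20 and 16 reads. NELFCD, of the negative elongation factor, and CTSZ, for cathepsin Z, were nearly even with 18 and 19 reads, as were POMT1 and UCK1 with 17 and 16.

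Head-to-head pairs lay mostly near the starts of genes that run apart. They had a median of 11 reads in the shallower partner (interval of the median 8 to 16). The 23 pairs belonged to 21 gene pairs. The plus-strand peak lay to the right in 20 of 23, with a median distance of 251.5 bases. Here too the call fixes the side where spans do not overlap and leaves it free where they do, so nothing is read from it. Of 44 distinct peaks, 40 had a summit within 1000 bases of the upstream end of their gene, at a median of 284.5 bases from it. Spans overlapped in 17 of the 23 pairs, and the other 6 are those whose separating sequence is shown above.

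C1orf122 and YRDC, for an enzyme of tRNA modification, had 23 reads each (14.6 to 34.5), with summits 254 and 296 bases from their starts. CES2, a carboxylesterase that hydrolyses drugs, and CIAO2B, of iron-sulfur protein assembly, had 20 reads each (12.2 to 30.9), with summits 298 and 155 bases from their starts. NR2C2, itself a nuclear receptor, had 17 reads against 25 for FGD5-AS1 in a pair 497.5 bases apart, just inside the limit. GABPA, a transcription factor of the ETS family, had 12 reads against 7 for ATP5PF, a subunit of ATP synthase. In none of these 4 pairs did the Poisson intervals of the partners lie apart. SLC22A23, of a family of membrane transporters, had 20 reads over 830 bases while LOC643327 had 48 reads in 201 bases, a fold of 24.5.

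The DNA before these starts was richer in CG than the median of all promoters. Over all promoters the quartiles were 1.2 and 9.2 CG per 100 bases. The choice of members did not use sequence, but it needed called peaks, and promoters of genes with a peak were not compared alone. Genes of head-to-head pairs had a median of 9.80 CG per 100 bases over 42 promoters, against 4.40 over all 27305, and a median GC content of 70.2% against 58.0%. CCGGAA or TTCCGG occurred in 20 of the 42 (47.6%) and in 17.6% of all promoters of the same length, from 250 bases before to 50 after the start. Partner genes with close starts share part of this sequence, so the 42 are not independent. AGGTCA or TGACCT, the 6-base element that PXR and other nuclear receptors are known to bind, occurred in 4 of 42 (9.52%) against 13.9% of all. AGTTCA or TGAACT occurred in 2 of 42 against 10.5%, TATAAA or TTTATA in 1 of 42 against 3264 of 27305, and ATTGG or CCAAT in 12 of 42 against 35.7%. Both strands were searched, any match counted once per promoter, and these matches describe letters, not sites in use. CCGGAA itself holds a CG, and no promoters matched for CG content were compared. Whether base composition accounts for these differences was not tested.

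At genes of 1 strand, the antisense peak was mostly a narrow, shallow one beside a wider, deeper peak of the gene's own strand. An antisense peak is one whose centre lies only in genes of the other strand, all with their strand given. Over the 44 pairs, which hold 41 distinct antisense peaks, antisense peaks had a median of 9 reads and own-strand peaks 23 reads. The median ratio within pairs was 0.416 (0.260 to 0.625). The antisense peak was shallower in 37 of 44 pairs, and in 19 of them the Poisson intervals lay apart. The narrowest peaks in the list are 200 bases wide, so peaks of at most 202 bases have about the smallest width found. Such widths were found in 30 of 44 antisense partners (68.2%) and in 5 of 44 own-strand partners (11.4%), against 19.2% of all peaks tested.

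**Figure D4:**
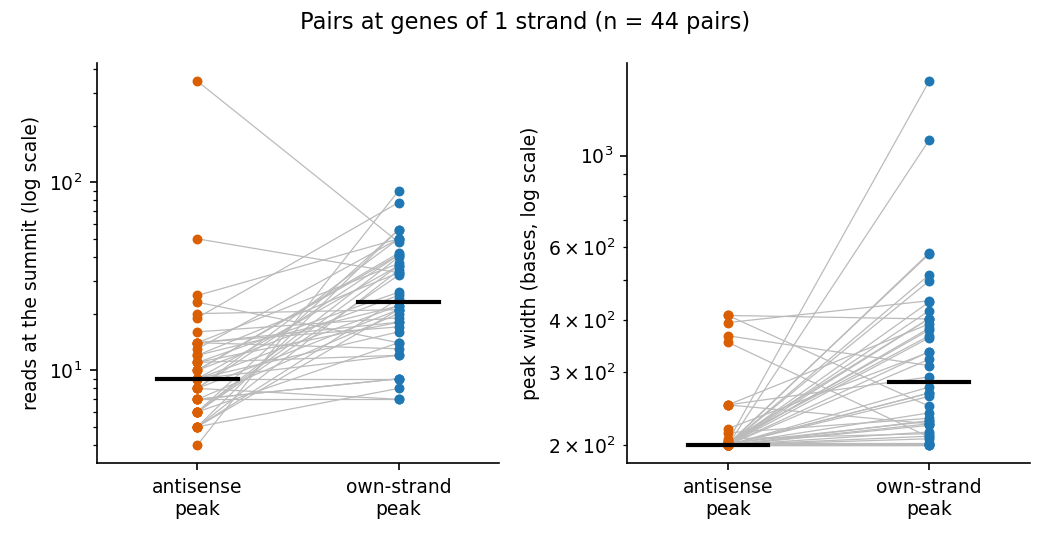
Reads at the summit (left, log scale) and peak width in bases (right, log scale) of the antisense and the own-strand peak of the 44 pairs at genes of 1 strand, with grey lines joining partners and black bars at the medians. The antisense medians are 9 reads and 200 bases, against own-strand medians of 23 reads and 284 bases.

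The background of the antisense peaks was also low. In 18 of 44 pairs (40.9%) the antisense peak lay at the caller's strand-wide background, which was 0.286 reads per 200 bases for plus-strand peaks and 0.236 for minus-strand peaks, against 3 of 44 own-strand partners and 2.98% of all peaks tested. At that level the fold does not depend on the reads around the peak. The median folds of antisense and own-strand peaks lay close to each other in spite of the difference in reads, with values of 6.35 and 6.95, and the antisense fold was the higher one in 21 of 44 pairs. Antisense peaks that belong to no pair had much the same values: 231 of them had a median of 10 reads and 200 bases, and 73.2% were at most 202 bases wide, as were 73.2% of the 41 paired ones.

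The antisense share itself follows from the choice of members, since each needs a partner on the other strand. Of the paired peaks with own-strand or antisense position known, 41 of 199 were antisense (20.6%), against 231 of 16047 of the other peaks (1.44%) and 1.67% of all, and nothing is read from that difference. Paired peaks made up 41 of the 272 antisense peaks (15.1%, Wilson interval 11.3 to 19.8%).

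A few antisense peaks were deep. At SOX12, a transcription factor gene on chromosome 20, the antisense peak held 345 reads (310 to 383) in 204 bases, at 326368 to 326571. The own-strand peak around it held 48 reads (35.4 to 63.6) over 1512 bases. It was the only pair of this kind in which the antisense peak was deeper with the intervals apart. At SLC12A9, of the cation-chloride cotransporter family, the antisense peak had 50 reads (37.1 to 65.9) in 202 bases and the own-strand peak 33 (22.7 to 46.3). Their intervals of reads overlap. HDAC4, a histone deacetylase, had 23 antisense reads in 200 bases, against 14 on its own strand.

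FBRSL1 had 25 antisense and 50 own-strand reads, and PDXK, the pyridoxal kinase, had 19 and 78. At GULP1, an engulfment adaptor, the reads were nearly even, 20 antisense and 21 own-strand, and the antisense peak was 354 bases wide. At the other end of the range USP22, a deubiquitinase of the SAGA complex, had 4 antisense reads (1.09 to 10.2) against 90 on its own strand (72.4 to 111). FAF1 had 5 against 56, and CC2D1A had 6 against 56. Antisense peaks as shallow as these hold too few reads for a ratio of any precision.

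**Figure D5:**
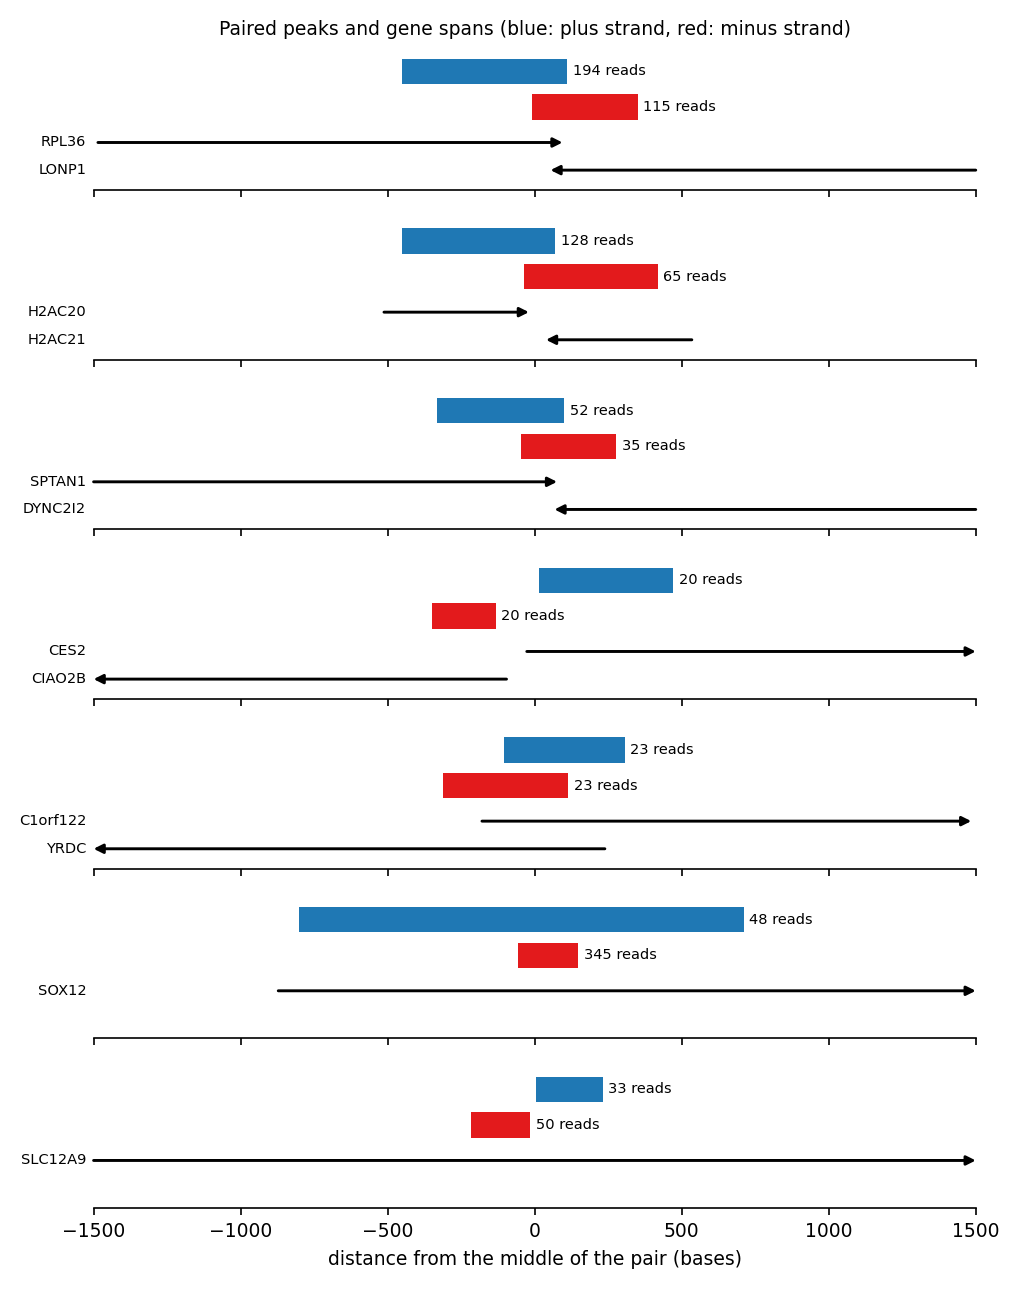
Paired peaks as bars (blue on the plus strand, red on the minus strand, with their reads) above gene spans as arrows pointing downstream, in bases from the middle of each pair. RPL36 with LONP1, H2AC20 with H2AC21 and SPTAN1 with DYNC2I2 are tail to tail, CES2 with CIAO2B and C1orf122 with YRDC head to head, and SOX12 and SLC12A9 carry an antisense peak.

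Some of the deepest pairs could not be placed by strand. KRT8 and KRT18, the keratins of simple epithelia, overlap in the table where the plus-strand peak held 721 reads (669 to 776) and the minus-strand peak 19 (11.4 to 29.7). This was the lowest ratio of all pairs, and KRT8 lies on the minus strand while the strand of KRT18 is not given. NDUFB10, of respiratory complex I, had 36 reads (25.2 to 49.8) on its own plus strand, and RPS2, of the small ribosomal subunit, had 141 (119 to 166) on the minus strand. Their intervals overlapped by 97 bases. BPTF, of the NURF chromatin remodeller, held 33 plus-strand reads over 555 bases and 78 minus-strand reads in 201 bases.

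JMJD8 and STUB1, whose spans overlap, had 37 reads on either strand. At MTATP6P1, a nuclear copy of a mitochondrial gene, the reads were 119 and 31, and they cannot be told apart from reads of the mitochondrial original by position. On chromosome 10, a pair in no gene had 8 reads on the plus strand (133689409 to 133689628) and 145 on the minus strand (133689246 to 133689476). SARAF, on chromosome 8, had 6 and 63.

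Most members had a single partner: 112 of 123 groups of linked peaks held 2 members, 9 held 3 and 2 held 4. KDM7A, a histone demethylase gene of the minus strand, held 1 antisense peak of 11 reads with 3 own-strand peaks of 12, 18 and 26 reads. The other group of 4 lay in KPNA2P3, a pseudogene, where the true source of the reads is uncertain. The span of DYNC2I2 held the centres of 4 members, and its own-strand peaks lay tail to tail with SPTAN1 and head to head with SET, a histone chaperone. HEXIM1, an inhibitor of the elongation factor P-TEFb, held 3, with 17 and 18 own-strand reads and 14 antisense reads.

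By gene, 185 of 10353 genes with any peak held a member (1.79%), and 160 of 8326 coding genes did (1.92%). Lists of genes, taken mostly by the form of their symbols and not complete for any family, were described by the same share. Of 74 cytosolic ribosomal protein genes with a peak, RPL36 and RPS2 held a member (2.70%), and of 42 replication-dependent histone genes H2AC20 and H2AC21 did (4.76%). Of 20 listed nuclear receptor genes with a peak NR2C2 did. ESRRA, a nuclear receptor outside that list and named after its values were seen, held 56 reads (42.3 to 72.7) tail to tail with TRMT112, which held 13 (6.92 to 22.2). Of 168 genes with a peak and a symbol starting with ZNF, for zinc finger proteins, ZNF276 held a member; zinc finger genes with other symbols, such as ZBTB11 and ZFHX3, are not in that count. Of the 4 keratins listed 3 had a peak, and KRT8 and KRT18 held a member. Symbols ending in -AS or -DT, given to antisense and divergent transcripts, held a member in 9 of 465 genes (1.94%), among them ZBTB11-AS1, MAP3K4-AS1 and FOXF2-DT.

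No member lay in the listed genes with a peak for 56 translation factors, 33 hnRNP and SR proteins, 24 snoRNA hosts, 60 mitochondrial ribosomal proteins or 49 chaperones. NOP56 and RPS2, which are also known to host snoRNAs and hold a member, are not in the host list. The Wilson upper limits of these shares, 6.02 to 13.8%, all lie above the 1.79% of all genes with a peak, so nothing is read from these zeros. None of 18 genes with a peak from a list of gene pairs known for a shared start region held one either. The proteasome list gave PSMC3IP, taken by its symbol, which codes for a recombination factor and not for a proteasome subunit.

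Paired peaks had fewer reads than the other peaks and a slightly higher fold. Their median was 17 reads (15 to 19), against 21 in the other 20639 peaks, and their median fold 6.49 (6.06 to 6.91), against 5.97. Under 10 reads were found in 60 of 259 (23.2%), against 10.1% of the other peaks and 10.2% of all. Widths of at most 202 bases were found in 77 (29.7%), against 19.0% of the others. With an overlap of 50% of the shorter peak as the rule, the median fold of members exceeded that of the rest by 0.198 in place of 0.519. The median background in 10 kb was 78 reads, against 121. When peaks of at most 202 bases were left out, 124 members in 67 pairs stayed. Members were found on 22 of the 23 chromosomes, from 28 of 1052 peaks on chromosome 7 (2.66%) to 0 of 390 on chromosome 13, which allows a share of up to 0.769% by the limit of 3 counts (Wilson upper limit 0.975%).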

How the data were processed

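Per the submitters' processing notes, reads were handled with cutadapt, BWA and MACS2 for the hg38 build; versions, settings and the pooling of replicates are not given in the sources used here. The authors deposited 1 peak list without a header, with a score, a fold (ratio of summit to background), −log10 p and −log10 q and a summit offset per peak. The deposited score was not used. In each peak, reads k and background b were recovered as whole k with fold (k + 1)/(b + 1) and a Poisson upper tail beyond k whose −log10 equals the deposited value, within 0.0001 plus a 0.00001 part; this held in 21028 of 21031 peaks and 259 of 259 members. Shares have Wilson and reads exact Poisson 95% intervals, which cover counting error only, since PCR copies are not independent molecules. Pairs that share a peak were each counted, and the intervals over pairs do not allow for that. Total depth per library is unknown. Genes came from RefSeq GRCh38.p14 spans, which share coordinates with hg38; where several genes were possible, the pair with the shortest spans was named. The fixed naming rule took 12 pairs by reads of the shallower partner, 6 each by summit distance and by highest and lowest ratio, the 8 genes with most members and list genes; others in the text (such as HDAC4, PDXK and the further tail-to-tail and head-to-head genes) were chosen after their values were seen. Members and lists were chosen with earlier results of these data known. Recovery and pair search were tested on simulated data. Python 3.11.15, numpy 2.4.6, scipy 1.17.1, pandas 2.3.3 and matplotlib 3.10.9 were used. Alternatives were other distances, summits, filters on significance, width and reads, and overlap rules. Some pairs that the naming rule selects are not reported here.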

Additional observations from a re-analysis of the deposited data

How the results depend on the processing

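No paired analysis was possible because the data are 1 peak list without columns for replicates. Of 57 alternative values, 33 stayed within counting error of the value reported (counts within 1.5 times), 24 moved and 0 reversed. Counts, shares of members and ratios of shallower to deeper reads have no direction that could reverse, so nothing is read from the 0. The 259 members became 159 at 250 bases, 702 at 1000 bases, 61 with peaks at or above the median significance, 124 without narrow peaks, 153 with at least 10 reads and 109 with an overlap of 50% of the shorter peak. Their share of 1.24% became 0.761% at 250 bases and 3.36% at 1000 bases. It was 0.585% with peaks at or above the median significance, 0.734% without narrow peaks and 0.816% with at least 10 reads. With 1 base of overlap it was 0.928%, and with 50% overlap 0.522%. The plus-strand peak lay to the right in 56.7% of pairs without narrow peaks and 53.7% with at least 10 reads. Overlapping pairs were 96.2% at 250 bases, 26.7% at 1000 bases and 59.8% with at least 10 reads; this share was not run under the overlap rules, which set it. The ratio of shallower to deeper reads was 0.551 with at least 10 reads and 0.378 with 50% overlap. Genes of both strands were found for 27.5% of pairs at 250 bases, 53.9% at 1000 bases and, chosen after seeing the data, 46.7% without pairs lacking a gene strand. The median fold of members minus that of the rest, 0.519, was 1.06 with significant peaks, 0.198 with 50% overlap, 0.391 without narrow peaks and 0.495 to 0.615 under the other 5 settings. The cause of these shifts was not tested beyond the changed set of pairs. At a median of 17 reads per summit, single ratios have wide intervals.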

Other observations

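In 10 pairs both peaks were at most 202 bases wide. In 6 of these 10 pairs the minus-strand peak ended 34 to 61 bases to the right of where the plus-strand peak began, counting both ends. They lay at GALNT13, EFHC2, SETD3, AP3S1, ETAA1 and the noncoding LOC107984219, with 7 and 7 reads at GALNT13, 9 and 9 at EFHC2, 9 and 22 at SETD3, 8 and 5 at AP3S1, 7 and 8 at ETAA1 and 6 and 10 at LOC107984219 on the plus and minus strands. The spans at EFHC2, SETD3 and LOC107984219 were all 35 bases. In the other 4, at FOXF2, HOXA10, CBL and SMYD2, the same measure was 172, 149, -286 and -245 bases. The source of these reads was not tested, and the pairs were singled out after their values were seen.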
